A study of Drosophila melanogaster with 51 samples.

Results

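The genes described are 8 genes of Drosophila melanogaster that carry or answer the Decapentaplegic (Dpp) signal: dpp, tkv, Mad, shn, brk, Dad, salm and bi. They were taken by name from a RefSeq gene table, in which each name matched 1 gene, and they are 8 of 17807 genes of the table on the chromosomes. For each gene, listed peaks of HP1 and of H3K9me3 were collected in the gene body, meaning the stretch between the annotated gene ends, and within 10 kb of it. The peaks were called from CUT&RUN, a method that tethers a nuclease to an antibody on chromatin and sequences the fragments it cuts free. The tissue was the wing imaginal disc, an epithelial sheet of the larva that grows into the wing blade and back of the fly. HP1a is a chromatin protein whose chromodomain binds histone H3 methylated at lysine 9, and H3K9me3 is the trimethylated form of that residue.

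The series holds 51 libraries in 18 groups, of which 16 used an antibody to HP1a, 15 to H3K9me3, 14 to GFP and 6 to H3K27me3. The genotypes are discs whose only replication-coupled histone H3 comes from a transgene, wild type (HWT) or with lysine 9 replaced by arginine (K9R), the HP1a chromodomain mutant (HP1a-chromo) with HP1a-control, yw, and discs with GFP-tagged HP1a. The tagged forms are GFP-HP1a in 1 copy (GFP-HP1a/+) or on both homologues (GFP-HP1a/GFP-HP1a), CrGFP-HP1a, and a tagged chromodomain mutant, CrGFP-HP1chromo, kept over a balancer per its genotype label. Per the labels, HWT and K9R larvae lack the endogenous histone cluster (∆HisC), carry twi-Gal4 and UAS-2xEYFP, and were picked as GFP-positive. HP1a-chromo and HP1a-control larvae came from mothers with Df(2L)BSC228 over a marked balancer, and larvae without that balancer were kept, so the control carries this deficiency as well. All libraries were made from wandering female larvae of the last instar, raised at 25 °C, with at least 20 discs pooled in each. The text below rests on 3 peak lists of the whole series and describes where peaks were listed, not how genotypes differ. No value of a single library was analysed here, so there is no spread between replicates, the depth is unknown, no test could be made and no p-value is given. For the same reason the tissue label could not be checked against marker genes.

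The peak names tie the HP1 list to a merged profile of a source named ywdf. The H3K9me3 list is tied to an HWT profile for 2047 of its 2245 peaks and to ywdf for 198, and the third list, of background regions, to an anti-GFP profile named yw. What ywdf stands for is not given in the sources used here. The yw anti-GFP libraries have yw in their titles and GFP-HP1a/+ as their genotype label, so the background regions may include tagged HP1a. A listed interval can be a part of a called peak: the 1435 HP1 intervals carry 1022 call names, and for 73.5% of them the recorded distance from the start of the call to its summit is larger than the interval. Each interval is called a peak here, and its fold enrichment, the ratio of the signal in the call to what the caller expected there, is the authors' value for the whole call.

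Dpp is a secreted ligand of the bone morphogenetic protein family, made in a stripe along the middle of the wing disc, from which it spreads and sets growth and pattern. The ligand binds the receptor Thickveins, encoded by tkv, which phosphorylates the transcription factor Mad. Mad and its partner Medea then switch genes on, or, together with the zinc-finger protein Schnurri, encoded by shn, switch off brk. Brinker, the product of brk, is a repressor of Dpp targets, among them salm and bi, which encode transcription factors that place wing veins and control growth. Dad is an inhibitory Smad that is itself induced by the signal and holds it back.

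Among the 8 genes, HP1 peaks lay at those that regulate or answer the signal, and none was listed at those that make, receive and first relay it. The body of shn held 7 HP1 peaks, that of Dad 2 and that of bi 1, and brk and salm had 4 and 1 peaks outside the body but within 10 kb. The genes dpp, tkv and Mad had 0 HP1 peaks in the body or within 10 kb. No H3K9me3 peak was listed in the body or within 10 kb of any of the 8 genes, where 0.249% of the protein-coding genes of the chromosome arms held one in the body and 1.25% in the body or within 10 kb. In all, 15 HP1 peaks from 12 calls were found, 10 in bodies and 5 in flanks. The split by role was seen in the values of these 8 genes and was not tested. With 10 kb on either side, a peak was listed at 18.6% of arm genes of 20 to 50 kb, to which dpp belongs. The share was 27.1% over 50 kb, as for tkv, and 14.6% from 5 to 20 kb, as for Mad. No peak was thus the more common case at such lengths. The split was not kept in the other pathway genes read below. There 2 of 6 ligands, both on chromosome 4, 1 of 4 receptors and 1 of 7 targets had a peak in that reach.

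Counted by gene, 3 of the 8 members held an HP1 peak in the body, where 2.48% of 13631 protein-coding arm genes did. Within 10 kb or in the body there was one at 5 of the 8, and at 10.7% of the arm genes. The median share of the body under HP1 was 0 in the members and 0 in the arm genes. The members are long genes, with a median body of 23.9 kb against 2.14 kb over the arm genes, and a longer gene has more room for a peak. Among arm genes over 50 kb, 18.9% held HP1 in the body, and of the 3 members of that length shn and bi did while tkv did not. The share was 5.54% for genes of 5 to 20 kb, where Dad held peaks and Mad and salm did not. It was 10.9% for genes of 20 to 50 kb, to which dpp belongs, and 0.785% for genes under 5 kb, to which brk belongs. With 10 kb added on either side the shares were 27.1% over 50 kb, 18.6% from 20 to 50 kb, 14.6% from 5 to 20 kb and 8.92% under 5 kb. In that reach the members with a peak were shn and bi of the 3 longest, Dad and salm of the 3 from 5 to 20 kb, and brk. The 8 genes were not drawn at random, so these shares are set side by side as a description.

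**Figure D1:**
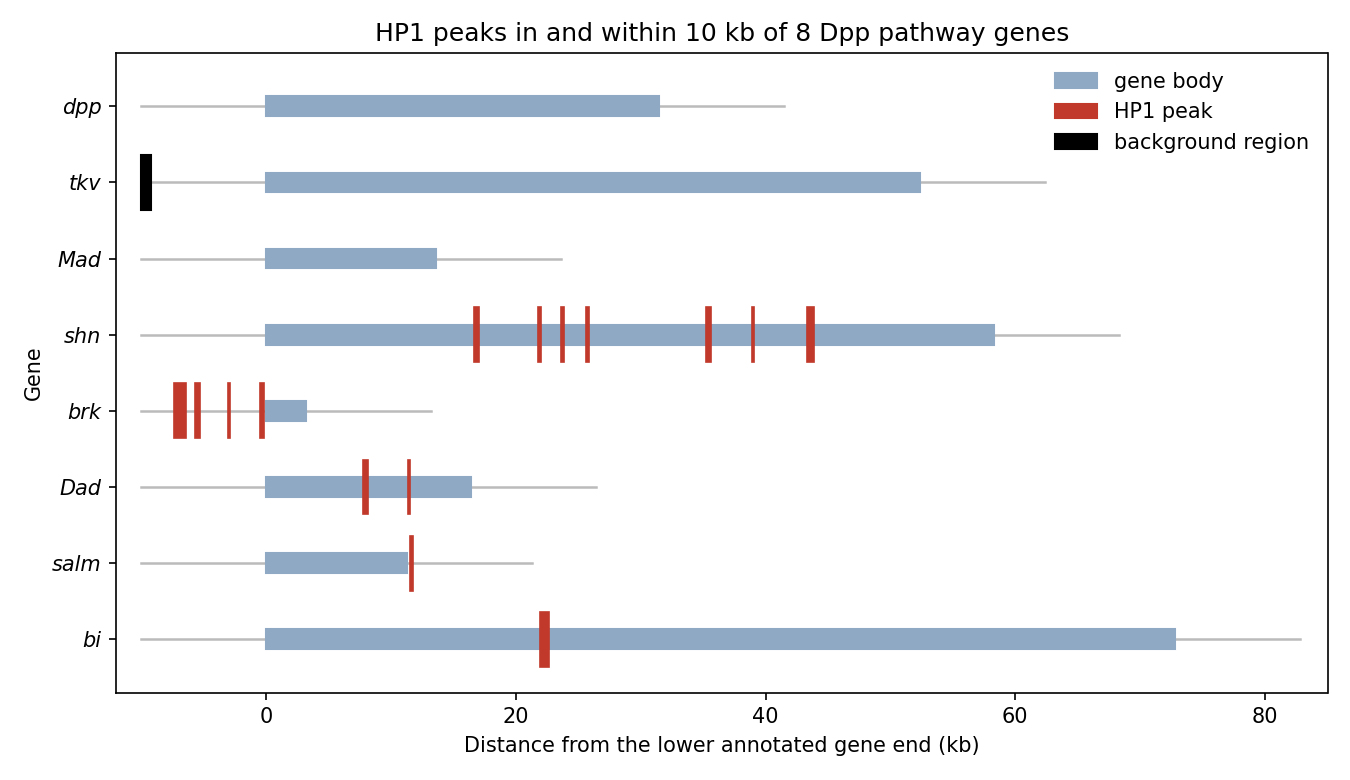
Each gene body (blue bar) is drawn to scale from its lower annotated end, with 10 kb on either side (grey line), in kb; red blocks are listed HP1 peaks and the black block is the background region near tkv, drawn as far as 10 kb from the gene. The 7 peaks of shn spread through the middle of the body, the 4 peaks of brk all lie before its lower end, and dpp, tkv and Mad have no HP1 peak; overlapping and neighbouring genes are not drawn.

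The ligand gene dpp lies on 2L at 2428372 to 2459823 and is 31.5 kb long. Its nearest HP1 peak lay 21.8 kb past the upper end, at 2481619 to 2482087, outside annotated genes, with a fold enrichment of 4.41. The next listed peak on the other side lay 64.1 kb before the lower end. The caller's numbers rise along each chromosome, and 4 numbers between those flanking calls are missing from the list. So at most 4 HP1 calls that the authors' final list does not hold can lie in that 117 kb, dpp included.

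The receptor gene tkv, at 2L 5219000 to 5271384, had its nearest HP1 peak 20.8 kb past the upper end. That peak, at 5292221 to 5292538 with a fold enrichment of 10.7, lies in vri, which encodes a transcription factor of the circadian clock. Of the 8 genes whose annotated bodies overlap tkv, among them Cyp4ac1, Cyp4ac2 and Cyp4ac3 of the cytochrome P450 family, none held an HP1 or H3K9me3 peak. Below tkv there was a background region instead, 2866 bp wide at 2L 5206890 to 5209755, whose nearer edge lies 9.25 kb from the gene. It covers the whole of Cyp28d2, another cytochrome P450 gene, and reaches into Msp300, which encodes a nuclear anchorage protein. This was the single background region within 10 kb of a member, where 3.17% of arm genes had one in the body or in that reach.

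Mad, which encodes the signal's Smad transcription factor, lies at 2L 3146056 to 3159643 and was the member farthest from HP1. The nearest peak lay 186 kb past its upper end, in E23, an ABC transporter gene, with a fold enrichment of 3.48. Of the arm genes, 28.8% were at least as far from a listed HP1 peak, so Mad was not unusual in this. Between the listed calls on either side, 864 kb apart, 35 call numbers are missing from the list. For tkv the count was 36 over 481 kb. A gene with no listed peak may thus still have held a call, since in the arms no more than 8.25% of the numbers spanned are listed.

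The gene shn, on 2R at 11159086 to 11217394, encodes the zinc-finger cofactor that Mad and Medea recruit to repress brk. Its 7 HP1 peaks had widths of 409, 288, 206, 212, 445, 209 and 517 bp from the lower to the upper end. Their fold enrichments were 3.29, then 10.3 for each of the 3 parts of 1 call, then 8.32, 6.33 and 11.1. The lowest value belongs to the peak nearest the lower end and the highest to the peak nearest the upper end. The peaks began 16.7, 21.7, 23.7, 25.6, 35.2, 38.9 and 43.4 kb from the lower end. They therefore lay in the middle of the gene, across 27.2 kb, with 16.7 kb of body before the first and 14.4 kb after the last free of listed peaks. No other annotated gene overlaps any of the 7. The protein-coding gene CG13229 overlaps the lower end of the annotated body of shn but ends before the first peak.

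The listed parts understate how much of shn was called. The 3 parts of 1 call, which cover 706 bp, span 4103 bp from the first base to the last. At least 2 further calls, absent from the list, lie inside the body, one between 25.8 and 35.2 kb and one between 39.1 and 43.4 kb from the lower end, since the numbers of their neighbours leave a gap there. Listed peaks covered 2286 bp, or 3.92% of the body. In bases under HP1, shn was among 12 arm genes with that many or more, and in number of peaks among 3. The other genes with 7 or more peaks, named here after their values were seen, were tara with 7 and Ugt50B3 with 17. In share of the body covered, 136 arm genes reached the value of shn or more.

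In the list, the peaks of shn stood alone on their chromosome stretch. The next listed HP1 peak lay 283 kb below the gene and 147 kb above it. Between those flanking calls, 489 kb apart, 27 call numbers are missing from the list, so unlisted calls may lie nearer. Around brk, Dad, salm and bi 29, 43, 27 and 43 numbers are missing in the same way. The nearest H3K9me3 peak lay 591 kb from shn, at 2R 10568224 to 10568366, and the nearest background region 147 kb away. By body length and bases under the 2 marks on a log10 scale, the arm genes most like shn were the LIM-only gene Bx, at a distance of 0.0120, the corepressor gene Smr at 0.121 and tna at 0.154, with 2338, 1730 and 2374 bp under HP1 in 4, 3 and 4 peaks. None of the 3 had a base under H3K9me3, which, like their similar bases under HP1, follows from the measure and is no result. The likeness is measured over 3 quantities and says nothing of shared function.

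The gene brk, at X 7307939 to 7311132, is the shortest member, with a body of 3194 bp, and encodes the repressor that Dpp signalling switches off. Its 4 HP1 peaks were 1028, 440, 217 and 329 bp wide, and all lay before the lower end. Their nearer edges were 6372, 5268, 2857 and 155 bp from the gene. No HP1 peak lay within 10 kb past the upper end. The fold enrichments in this order were 10.6 for both parts of 1 call, then 3.14 and 6.57. The strongest call was thus the one farthest from the gene, and the peak next to the gene was of middle height.

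The peak next to brk is 1 part of a longer call. Its recorded summit is 1952 bases from the start of the call, so the call is at least 1953 bp long, of which 329 bp are listed. As the call before it ends at 7305082, the summit can lie between 904 bp before the lower end of brk and 1469 bp inside the gene. Whether the call's highest point lies in brk or beside it cannot be told from the list. All 4 peaks also lie in the annotated bodies of the protein-coding gene CG1677 and of lncRNA:CR44357, which span 7281089 to 7405797 and 7166451 to 7405797 and contain brk. By annotation they are peaks of those genes as much as of brk. Beyond this group the next listed HP1 peak was 322 kb below brk and 316 kb above it. The nearest H3K9me3 peak lay 549 kb away, at X 6758738 to 6759226. Of the arm genes, 57 had at least 4 HP1 peaks in the body or within 10 kb.

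Dad, at 3R 17054007 to 17070408, encodes the inhibitory Smad that is both target and brake of the signal. It held 2 HP1 peaks in its body of 16.4 kb, at 17061811 to 17062142 and at 17065358 to 17065548. The first was 332 bp wide with a fold enrichment of 7.59, and the second 191 bp wide with 4.42. They began 7.80 and 11.4 kb from the lower end, with 3216 bp between them, and covered 3.19% of the body. No other annotated gene overlaps either peak. Both lay well away from the gene ends, since the upper end is 4860 bp beyond the second peak. The peaks carry neighbouring call numbers, so no call was left out between them, and both are parts of longer calls, of at least 801 and 354 bp. The next listed HP1 peaks lay 799 kb below and 630 kb above the gene, and the nearest H3K9me3 peak 4538 kb away. The arm genes most like Dad were CG14434 and CG43736, which share 1 HP1 stretch of 558 bp, and the trehalase gene Treh, with 550 bp.

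The gene salm, at 2L 11434311 to 11445614, encodes a zinc-finger transcription factor and is a target that Brinker represses. Its 1 HP1 peak was 186 bp wide, at 11445873 to 11446058, and began 259 bp past the upper end, outside annotated genes. Its fold enrichment was 8.33, higher than in 72.1% of the arm HP1 peaks, while 4.58% of them were narrower. The call reached at least 40 bases beyond the listed part. The next listed HP1 peaks lay 249 kb below and 362 kb above salm. Its neighbour and relative salr, at 11358873 to 11373636, had no HP1 peak in the body or within 10 kb. For salr the nearest HP1 peak was the one beside salm, 72.2 kb away.

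The gene bi, also called omb, lies at X 4412856 to 4485647 and encodes a T-box transcription factor, another target that Brinker represses. It is the longest member at 72.8 kb and held 1 HP1 peak, 736 bp wide, at 4434767 to 4435502. This peak lies 21.9 kb from the lower end, and had a fold enrichment of 3.71, higher than 16.7% of the arm HP1 peaks. It was wider than 84.6% of them, so the widest peak inside a member's body was also one of the weakest. It covered 1.01% of the body and also lies in lncRNA:CR32773, which spans the whole of bi. The nearest H3K9me3 peak was 445 kb past the upper end, the shortest such distance among the members. The arm genes most like bi were lola, which encodes a transcription factor, CG33158, and Eip74EF, an ecdysone-response gene, with 734, 626 and 668 bp under HP1.

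**Figure D2:**
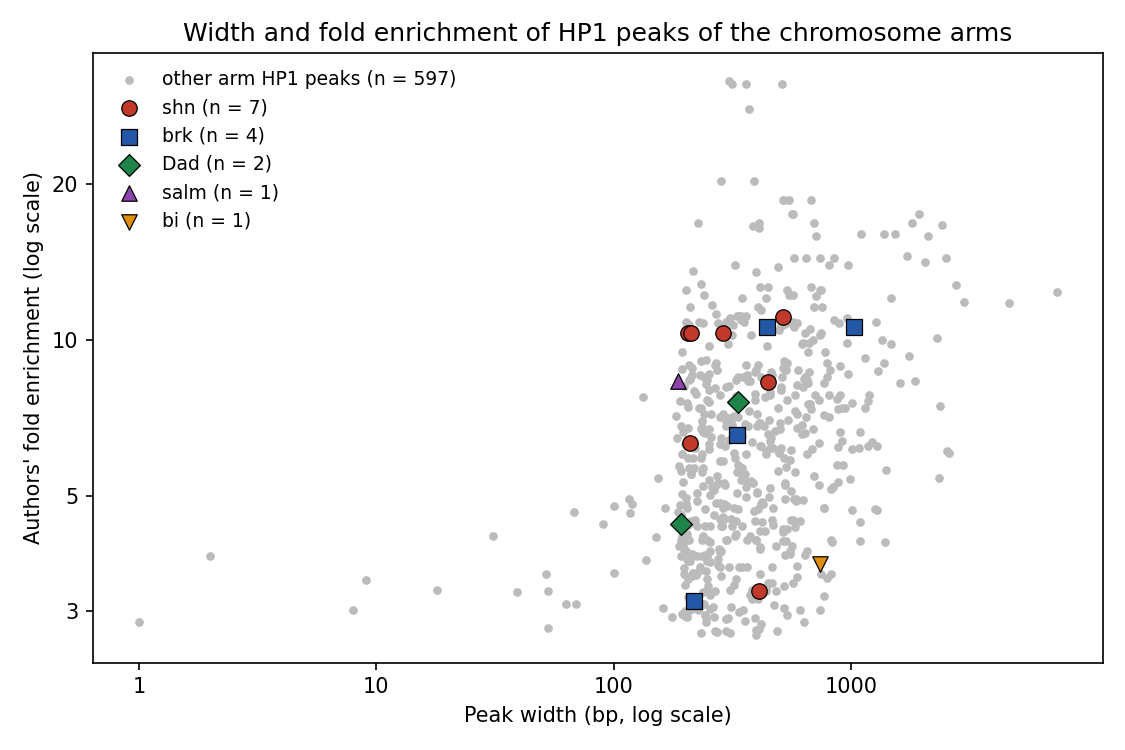
Width in bp and the authors' fold enrichment of every HP1 peak of the chromosome arms, both on log scales, with the 15 peaks at shn, brk, Dad, salm and bi marked by gene and the other arm peaks in grey. The marked peaks lie inside the cloud of arm peaks, from a fold enrichment of 3.14 at brk to 11.1 at shn.

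The 15 peaks did not stand out from the 612 HP1 peaks of the arms in width. Their median width was 329 bp and that of the arm peaks 359.5 bp, and 9 of the 15 were narrower than the arm median. The 12 calls behind them had a median fold enrichment of 7.08, against 5.57 for the 522 calls of the arms, and 8 of the 12 were above the latter. No test was made of this difference, and of the 12 calls 5 lie at shn and 3 at brk. The −log10 q-values of the members ran from 8.04 at shn to 91.8, also at shn, while the smallest in the list was 5.02. None of the 15 touched a background region, and the closest such region lay 31.6 kb from a peak of Dad. All 15 were far from H3K9me3, at 495 to 4546 kb, as most arm HP1 peaks were, with a median of 757 kb. Of the 612 arm HP1 peaks 42 touched an H3K9me3 peak. The lists are tied to different profiles, all HP1 peaks to ywdf and 2047 of 2245 H3K9me3 peaks to HWT. These distances therefore compare peaks of unlike sources.

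The members differ in where the peaks sit. Those of shn, Dad and bi lay inside the body, none within 4860 bp of an end. Those of brk and salm included one within 500 bp of an end. No listed part lay in the body, though the calls behind them may reach it. A listed peak within 500 bp of an end with none in the body was found at 2 of the 8 members and at 0.954% of the arm genes. The bound of 500 bp was not planned and was added once the distances at the members were known. The 2 members thus meet it by that choice, and the share is not matched for length. In reach the members split without borderline cases. The farthest peak counted was at 6.37 kb, beside brk, and the nearest not counted at 20.8 kb, beside tkv, so any reach from 6.4 to 20 kb gives the same peaks.

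In bases, listed HP1 peaks covered 3545 of the 259426 bp in the 8 bodies, or 1.37%, against 0.224% over the bodies of all protein-coding arm genes. With the parts of 1 call joined, the members had 6942 bp covered, or 2.68%, against 0.278% over the arm genes. The whole of this rise lies in shn, in the call whose 3 parts cover 706 bp and span 4103 bp. Of the 3545 bases 64.5% lie in shn. Without shn the share was 0.626%, with parts joined or not. Per 100 kb, the member windows of body and 10 kb on either side held 3.58 HP1 peaks and, without shn, 2.35, while the arms as a whole held 0.532. Beyond their windows the 5 genes with peaks had no further listed HP1 peak within 100 kb. For dpp and tkv 2 peaks each lay within that distance, and for Mad 0. Of the 612 arm HP1 peaks, 21.9% had no other within 100 kb, and the median was 2 others. The share of arm genes with peaks but no further one was not computed, so the spacing is not read as particular to these genes.

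**Figure D3:**
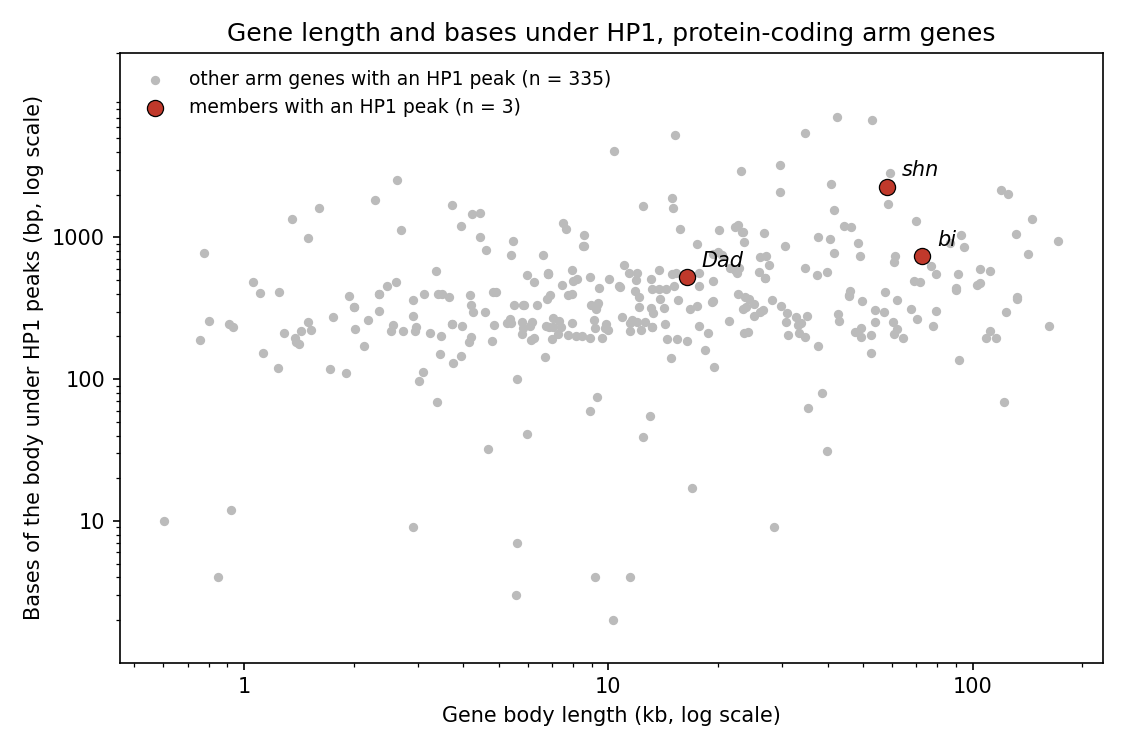
Bases of the gene body under HP1 peaks (bp) against body length (kb), both on log scales, for protein-coding genes of the arms with at least 1 HP1 peak in the body. The members with a body peak are marked, with shn at 2286 bp, bi at 736 bp and Dad at 523 bp; genes without a body peak, the other 5 members included, cannot be drawn on this scale.

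The same reading was made for 38 other genes of Dpp and related TGF-beta signalling, listed by role. HP1 peaks lay in the body of 5 of the 38 and in the body or within 10 kb of 12. Of these genes 3 lie on chromosome 4, a small and largely heterochromatic chromosome. Among the 35 in the arms, 3 held HP1 in the body (8.57%, against 2.48% of all arm genes) and 10 in the body or within 10 kb (28.6%, against 10.7%). The median length of the 38 genes was 10.8 kb, so these too are longer than most genes, and the shares beside them are not matched for length. Of the 3 arm genes with a body peak, ush and sbb are over 50 kb, where 18.9% of arm genes held one. The third, gro, is in the class of 5 to 20 kb, where 5.54% did. A difference from arm genes of like length was not tested. The median share of the body under HP1 was 0.

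Among the ligands, mav and myo, both on chromosome 4, held HP1, and gbb, scw and daw in the arms and Actbeta on chromosome 4 did not. The body of myo, which encodes a myostatin-like ligand, had 59.3% of its bases under HP1 in 4 peaks, with a fold enrichment up to 19.7. The body of mav had 30.1% under HP1 in 2 parts of 1 call, with a fold enrichment of 13.4. These were the 2 genes of the 38 with H3K9me3, with 3 peaks in the body of myo and 1 in that of mav. No H3K9me3 peak lay in the body or within 10 kb of any of the 35 arm genes, nor of dpp itself, where 1.25% of all arm genes had one. The other ligand of the wing disc, gbb, had its nearest HP1 peak at 176 kb.

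Of the 4 other receptor genes 0 held HP1 in the body, which at the arm share of 2.48% says nothing about receptors. The gene sax, which encodes a receptor that works beside Thickveins, had an HP1 peak of 100 bp 172 bp before its lower end, in the neighbouring gene Nop17l, with a fold enrichment of 4.80. For put, the receptor partner of Thickveins, the nearest HP1 peak lay 98.3 kb away, for babo 65.8 kb and for wit 156 kb. Among 5 transducers and cofactors, gro and sbb held HP1 in the body, and Med, Smox and CtBP had none within 10 kb. A body peak was listed at 2.48% of all arm genes and at 18.9% of those over 50 kb, to which sbb belongs. The corepressor gene gro had 507 bp under HP1, or 6.20% of its body, with a fold enrichment of 6.21. The gene sbb, also called master of thickveins and known to act on tkv expression, had a body peak of 303 bp with a fold enrichment of 7.09, and another of 493 bp that began 19 bp past its upper end. For Med, which encodes the partner of Mad, the nearest HP1 peak lay 97.6 kb away.

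Of 14 genes for extracellular regulators 0 held HP1 in the body, where 2.48% of arm genes did, so a list of this length could not show a lack. Within 10 kb 5 of the 14 had a peak, where 10.7% of arm genes had one in the body or in that reach. The strongest of these peaks lay 4.48 kb before the lower end of dally, a heparan sulfate proteoglycan gene needed for Dpp spread, with a width of 710 bp and a fold enrichment of 12.2. A peak of 194 bp lay between the neighbouring protease genes tok and tld, 317 bp past the upper end of tok and 96 bp before the lower end of tld. It counts for both genes. The gene cv had a peak 143 bp before its lower end, and sog had 1 on either side, at 9466 and 8385 bp. The sog peak below the gene had a fold enrichment of 10.6 and the one above it 4.38. Among the intracellular inhibitors, nmo, which encodes a protein kinase, had a peak 201 bp before its lower end, in Pop4, and Smurf had none within 10 kb.

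Of 7 further target genes, ush, which encodes a zinc-finger cofactor, held HP1 in the body, in a peak of 196 bp with a fold enrichment of 3.98. The other 6, which are salr, vg, kni, knrl, pnr and tup, had none within 10 kb. So among the targets read here HP1 was listed at salm, bi, Dad and ush but not at salr, vg, kni, knrl, pnr or tup. The 1 body peak among the 7 stands beside 2.48% of all arm genes and 18.9% of those over 50 kb, to which ush belongs. Within 500 bp of a gene end with none in the body, a peak was found at 5 of the 38 genes, which are cv, sax, nmo, tok and tld. The genes tok and tld share the same peak. Of all arm genes 0.954% had such a peak, a share not matched for length. The bound of 500 bp was added once the distances at the members were known, and the difference was not tested.

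**Figure D4:**
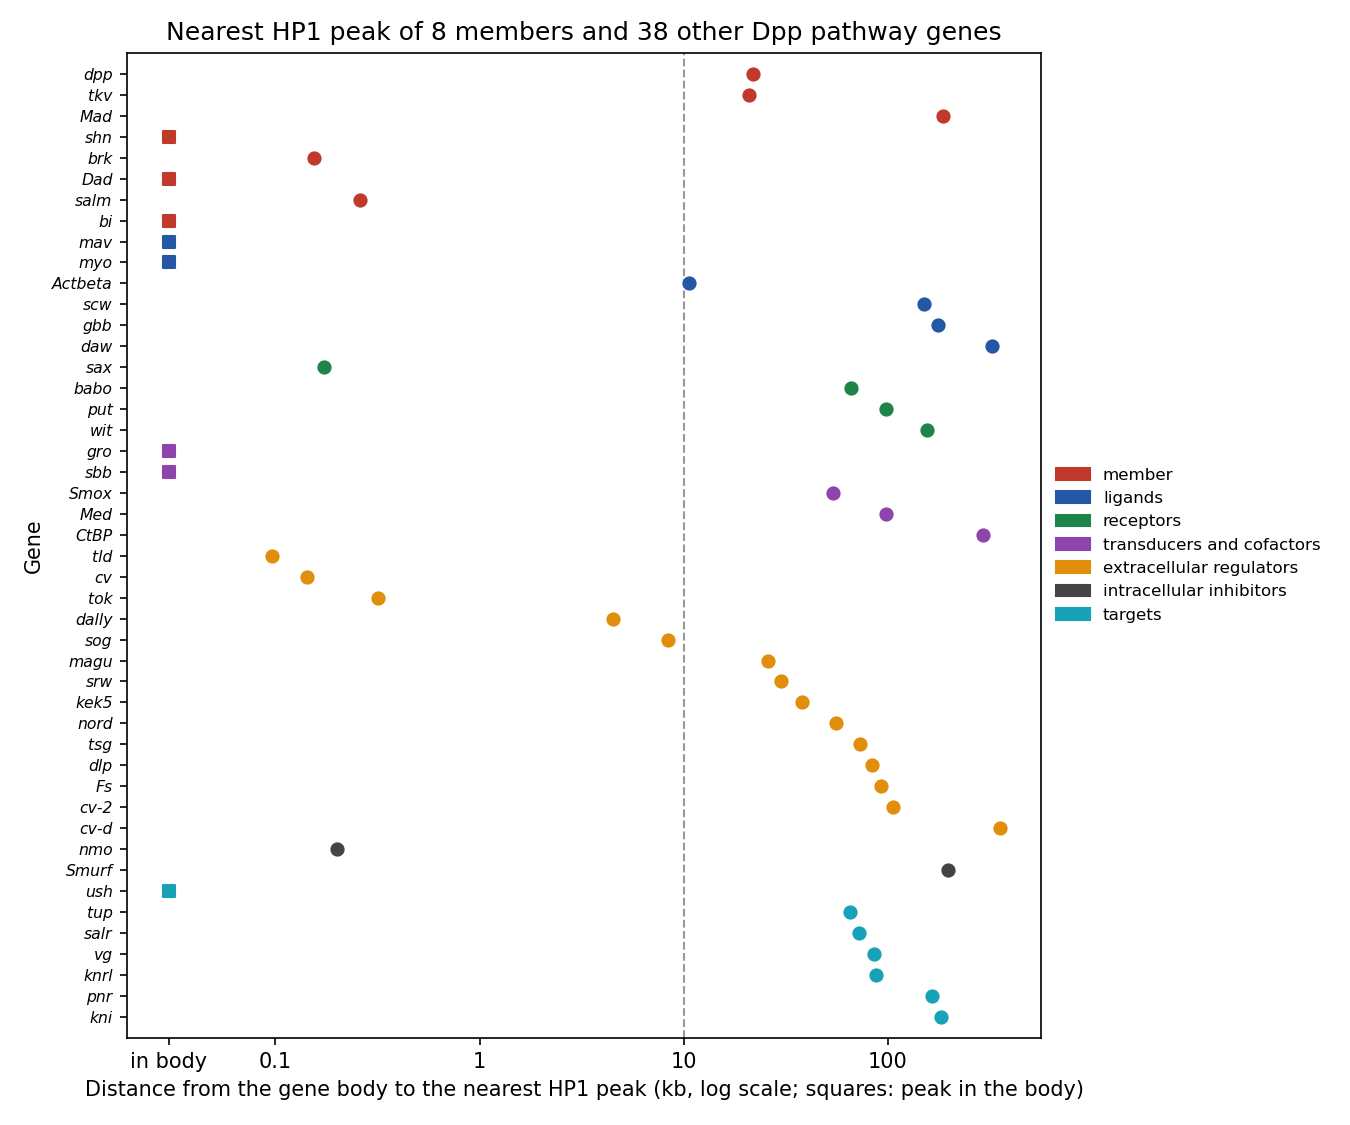
Distance in kb, on a log scale, from each gene body to the nearest HP1 peak for the 8 members and the 38 other pathway genes, coloured by role; squares at the left mark genes with a peak in the body, and the dashed line marks 10 kb. Of the members 3 have a body peak and brk and salm lie under 0.3 kb, while dpp and tkv lie near 21 kb and Mad at 186 kb.

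Over all arm genes the median distance to the nearest HP1 peak was 96.8 kb, and 50.9% had one within 100 kb. The median was 72.2 kb for the 35 other pathway genes of the arms and 0.207 kb for the 8 members. The members' value falls between brk at 0.155 kb and salm at 0.259 kb, while dpp, tkv and Mad lay at 20.8 kb or more. It thus describes no typical member, and these medians are not matched for gene length. For H3K9me3 the members ranged from 445 kb at bi to 7770 kb at dpp, with a median of 2783 kb against 1532 kb over the arm genes. The genes dpp, tkv and Mad share the same nearest H3K9me3 peak, at 2L 10230262 to 10231060.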

How the data were processed

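The authors processed CUT&RUN libraries of wing discs. Per the submitters' processing notes, they used MACS2 2.1.2, bedtools 2.26, Bowtie2 2.3.4.1 and SAMtools 1.10 with dm6 as the build. How calls were combined into the lists is not stated there. Each deposited row gives a peak's fold enrichment as a ratio, its −log10 q-value, and a score that is 10 times that value without its decimals in every row. These are the authors' values of a call and served to describe and filter peaks within a list.

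Gene ends were read from RefSeq's table for the dm6 assembly, which gives no strand, exons or sequence. Lower and upper end are therefore by coordinate, no sequence is shown, and the planned promoter motif search was not run. Arms are 2L, 2R, 3L, 3R and X without the pericentric 1.5, 5.4, 5.1, 4.6 and 0.9 Mb, and a gene was placed by its middle. A peak counted at 1 bp of overlap. The code for coverage (Python 3.11.15, pandas 2.3.3) was tested on simulated data. Likeness is the Euclidean distance over log10 body length and log10 of bases under HP1 and under H3K9me3, each plus 1.

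The members and lists were chosen with earlier results of these data known, and no test was made. All members were named, as were any pathway genes, genes under a peak near a member and the 3 likest genes of each member with a body peak. Alternatives changed the reach, the overlap rule, the q-value, the background regions and the joining of parts.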

Additional observations from a re-analysis of the deposited data

How the results depend on the processing

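No paired analysis was possible because no values per library were analysed, which also means that no replicate was left out. Of 61 alternative values 53 stayed within 1.5 times the reported one. Some of these could not move, so the count is no measure of robustness. The 0 members with H3K9me3 stay 0 under a shorter reach, a stricter q or the removal of peaks. No HP1 peak of a member touched a background region, so leaving such peaks out changed nothing there. The reach of 0.5 kb was added with the distances known. With the parts of 1 call joined, the bases under HP1 in the member bodies came to 6942, with the whole rise in 1 call of shn. Within 5 kb there were 3 flank peaks and 0 members with a background region, and by the middle base of the region there were also 0. Without shn, chosen after seeing the data, 3 body peaks over 1259 bp were left. Without the chromosome 4 genes, also chosen after seeing the data, 3 other pathway genes held HP1 in the body and 0 had H3K9me3 within 10 kb. By the recorded summit, 4 members held HP1 in the body, with brk as the addition, if each listed part starts its call. Depth is unknown, and a gene without a listed peak was not shown to lack the mark.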
